A study of Mus musculus with 10 samples.

Results

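The ear comparison set 3 libraries of mouse ear fibroblasts at 12 h against 3 libraries at 0 h. These are 6 of the 10 libraries in the series, the other 4 being lung fibroblasts, 2 at each time. Both groups are labelled as fibroblasts from post-mortem ear, and they differ in the labels by time point alone. The strain, age, sex and genotype of the mice, whether the cells were cultured, and what the hours are counted from are not stated in the labels. Values are TPM, the share of a library's transcripts that belongs to a gene after correction for transcript length, scaled to the same total in every library. TPM of all transcripts of a gene were added, and the comparison covered the 12550 of 22594 genes (55.5%) that reached 1 TPM in at least 2 of these 6 libraries. Between 12024 and 12337 genes were at or above 1 TPM in an ear library. TPM keeps no record of read numbers, so the depth behind each value is unknown.

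Fibroblasts are the connective tissue cells that secrete collagen and other matrix proteins. Skeletal muscle fibres, which the external ear also contains, are built from sarcomeres, in which myosin thick filaments pull on actin thin filaments. Troponin C binds calcium, troponin I blocks myosin from actin at rest and troponin T ties both to the thin filament. Myogenic regulators such as Myod1 and Myog switch on these genes as precursor cells differentiate and fuse. RNA of a mixed preparation was measured, so a larger number of cells of a type and more RNA per cell cannot be told apart.

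Fibroblast markers were high in every library. The 14 fibroblast markers summed to 13522 to 17828 TPM at 12 h and 13693 to 15186 TPM at 0 h. Col1a1, a chain of type I collagen, lay between 373 and 756 TPM, and Pdgfra, a receptor that marks fibroblasts, between 166 and 682 TPM. Markers of lymphocytes summed to at most 1.49 TPM at 12 h and 1.83 TPM at 0 h. Those of other cell types were not all near 0. Keratinocyte and epithelial markers summed to at most 100 TPM at 12 h and 95.9 TPM at 0 h. Macrophage markers summed to at most 56.5 and 49.2 TPM, and adipocyte markers reached 3166 TPM in 0 h number 1.

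The libraries of 1 time differed widely from each other, and in part along their replicate numbers. On principal component 1, with 48.6% of the variance of the 6 libraries, the 12 h libraries scored 45.0, -20.8 and 1.83 for numbers 1, 2 and 3, and the 0 h libraries 26.5, -23.0 and -29.6. The times overlapped on it, with both number 1 libraries at the high end. The labels do not say that libraries came from separate animals, so a p-value measures the spread between these libraries only. Of the Y-linked genes, Ddx3y, Eif2s3y and Kdm5d were at 52.4, 28.9 and 7.33 TPM in 0 h number 2 and at or near 0 in the other 5 ear libraries. Uty, also Y-linked, was at 61.0 to 89.2 TPM in all 6 through 1 nonsense-mediated decay transcript, and its other transcripts were detected almost only in 0 h number 2. Ddx3y, Eif2s3y and Kdm5d therefore differ between 12 h number 2 and 0 h number 2, although the numbers match.

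No gene passed the adjusted threshold in the comparison of the times. With limma, a linear model that moderates each gene's variance across genes, 0 of 12550 genes had an adjusted p under 0.05 (0%), and the lowest adjusted p was 0.99988. An unadjusted p under 0.05 was reached by 256 genes (2.04%), of which 201 were higher at 12 h (1.60% of genes tested) and 55 lower (0.438%). Every 12 h library lay above every 0 h library for 467 genes (3.72%) and below for 174 genes (1.39%). A fold change of 2 or more was seen in 119 genes as higher (0.948%) and in 37 as lower (0.295%). Between libraries of equal number, 2169 genes were higher at 12 h in all 3 pairs (17.3%) and 917 lower (7.31%). For a single gene, an exact permutation test of 3 against 3 libraries cannot give a two-sided p below 0.1. The median log2 fold change of the genes tested was 0.03. Fold changes are on the scale of log2(TPM + 1), which understates differences of genes near 1 TPM.

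With the replicate number as a block, which compares libraries of equal number, 1 gene passed (0.00797%), the myosin light chain gene Myl1. Under that block 640 genes had an unadjusted p under 0.05 (5.10%). The block left 2 residual degrees of freedom and rests on a pairing that the labels do not give.

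**Figure D1:**
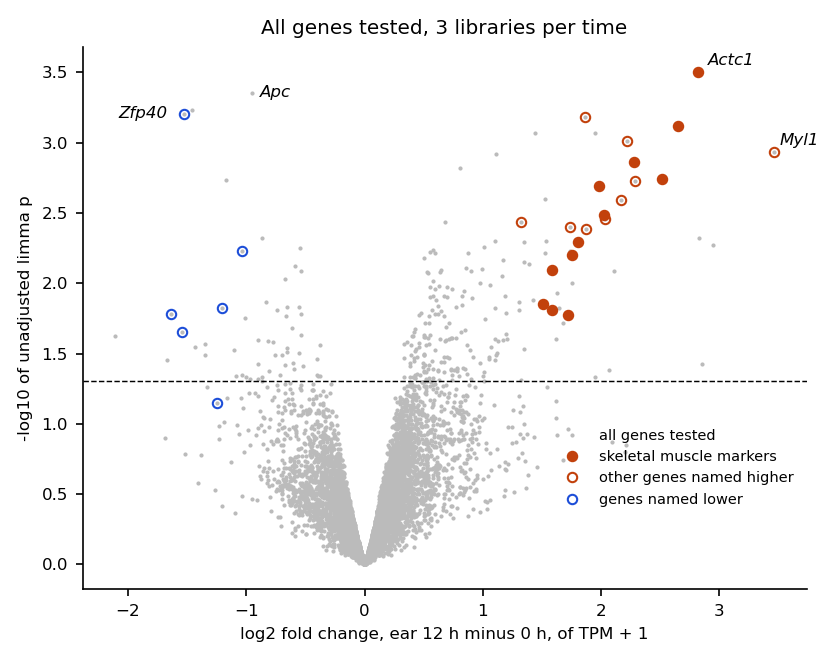
Each point is 1 of the 12550 genes tested, with its log2 fold change, 12 h minus 0 h, on the x axis and the negative log10 of its unadjusted limma p on the y axis, the dashed line being the 0.05 level. Filled points are the 12 skeletal muscle markers tested, all on the right above the line, and open points are the other genes named as higher (right) or lower (left).

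Sarcomere genes led the genes higher at 12 h by unadjusted p. By a rule that took genes with no overlap between the times, a log2 fold change of at least 1 and a mean of at least 5 TPM at either time, 33 genes were higher and 6 lower. Of the 15 higher genes with the smallest unadjusted p, all but Ret encode proteins of the muscle fibre. None of the 15 passed the adjusted threshold without the block.

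Myl1, on chromosome 1 at 66924295 to 66945404 of GRCm38, encodes an essential light chain of fast-fibre myosin. It was at 42.6, 30.0 and 145 TPM in the 12 h libraries, against 3.61, 2.07 and 9.43 TPM in the 0 h libraries. The lowest 12 h library was above the highest 0 h library, and number 3 was the highest at each time. Its log2 fold change was 3.46 (SE 0.66, limma adjusted p = 0.99988). With the block the SE was 0.16 and the adjusted p 0.0463, because the differences between libraries of equal number were close to each other, at 3.24, 3.33 and 3.80. It passed the threshold in that fit alone. Of its transcripts, the one with 803 bases was at 14.9, 12.7 and 76.4 TPM at 12 h and at 1.06, 1.39 and 3.94 TPM at 0 h. It held the largest share of the gene's TPM at each time, 47.9% at 12 h and 42.3% at 0 h.

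The myosin light chain gene Myl4, which is used in embryonic muscle and in the atrium, had 97.9, 84.4 and 255 TPM at 12 h and 32.4, 34.4 and 47.8 TPM at 0 h. Myh1, a fast myosin heavy chain gene, had 4.76, 2.55 and 13.3 TPM at 12 h and 0.538, 0.516 and 0.383 TPM at 0 h. Both genes had their highest level in 12 h number 3, and neither overlapped between the times. Their log2 fold changes were 1.74 (SE 0.41) and 2.17 (SE 0.47). Myh3 and Myh8, heavy chains of developing muscle, had log2 fold changes of 1.75 and 1.81.

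Genes of the thin filament were also highest in 12 h number 3. Actc1, an actin of heart and of developing skeletal muscle, was at 22.3, 11.5 and 43.5 TPM at 12 h and at 2.02, 2.14 and 2.88 TPM at 0 h. The skeletal actin gene Acta1 was at 31.2, 27.1 and 114 TPM at 12 h and at 6.77, 6.06 and 9.17 TPM at 0 h. Actc1 had the smallest unadjusted limma p of all genes tested, with a log2 fold change of 2.82 (SE 0.43), and Acta1 had 2.51 (SE 0.52). Both transcripts of Actc1 in the table were higher at 12 h in every library, and the shorter, of 303 bases, held 63.9% of its TPM at 12 h and 64.9% at 0 h.

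Troponin genes of both fast and slow fibres were among the 15. The fast troponin C gene Tnnc2 was at 10.6, 8.39 and 32.9 TPM at 12 h and at 1.26, 1.22 and 2.00 TPM at 0 h. The slow and cardiac troponin C gene Tnnc1 was at 17.8, 15.8 and 55.6 TPM at 12 h and at 4.28, 5.26 and 7.09 TPM at 0 h. The log2 fold changes were 2.65 for Tnnc2 and 2.02 for Tnnc1, with Tnni2, Tnnt1, Tnnt2 and Tnnt3, which encode troponin I or T, between 1.98 and 2.28. Mylpf and Tnni1, picked out after their values were seen, encode a fast regulatory light chain and the slow troponin I. Mylpf had 46.4, 27.3 and 174 TPM at 12 h and 6.74, 4.39 and 14.8 TPM at 0 h (log2 fold change 2.83, SE 0.70). Tnni1 had 16.4, 16.6 and 91.2 TPM at 12 h and 2.00, 1.47 and 7.29 TPM at 0 h (2.95, SE 0.74).

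Genes of the scaffold around the filaments completed the group. Des encodes desmin, the muscle intermediate filament protein, and was at 9.47, 5.84 and 24.9 TPM at 12 h and at 1.37, 1.09 and 2.24 TPM at 0 h. Myoz2, which encodes a protein of the Z disc, was at 5.12, 2.92 and 7.85 TPM at 12 h and at 0.576, 0.404 and 0.991 TPM at 0 h. Mybph, a myosin-binding protein gene, averaged 5.32 ± 4.23 TPM at 12 h and 0.485 ± 0.045 TPM at 0 h (SD, n = 3 each). The spread at 12 h was wide in each of these genes because number 3 stood above the other 12 h libraries.

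**Figure D2:**
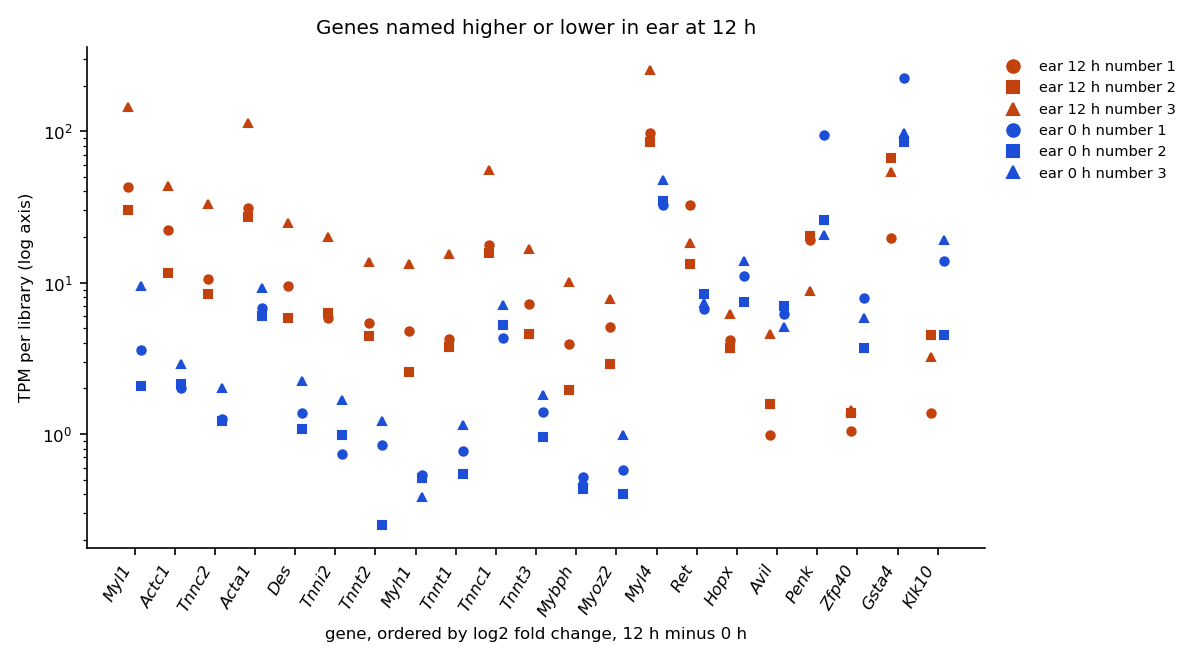
The TPM of each library is drawn on a log axis for the 15 genes named as higher and the 6 named as lower, ordered by log2 fold change, with 12 h libraries to the left of 0 h libraries and marker shapes for the replicate numbers. In the 15 genes from Myl1 to Ret every 12 h library lies above every 0 h library, and 12 h number 3 is the highest except in Ret.

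Regulators and fusion genes of muscle were present at low levels and higher at 12 h. Myog, the regulator of terminal differentiation, was at 3.25, 1.46 and 10.8 TPM at 12 h and at 0.624, 0.136 and 0.874 TPM at 0 h. Mymk, which encodes the fusion protein myomaker, was at 1.84, 1.34 and 7.31 TPM at 12 h and at 0.289, 0.243 and 0.484 TPM at 0 h. Their libraries did not overlap. The log2 fold changes were 1.72 for Myog and 1.51 for Mymk, and those of Ckm (muscle creatine kinase) and Chrna1 (acetylcholine receptor subunit) were 1.59 each. Myod1 did not reach the filter, with 0.910, 0.269 and 1.87 TPM at 12 h and 0, 0.0293 and 0.156 TPM at 0 h. Myf5 and Myf6 were also below it, and Pax7, a marker of muscle stem cells, was listed at 0 in all 6 libraries.

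Of the 16 skeletal muscle markers, 12 passed the filter, and in all 12 every 12 h library lay above every 0 h library, where 3.72% of all genes did. All 12 had an unadjusted p under 0.05 with the higher level at 12 h (1.60% of all genes), and 0 passed the adjusted threshold with or without the block. Among them, 5 passed the filter only through the 12 h libraries and so had to differ. The list was chosen with earlier results of these data known, and some members are also among the 15 genes named for not overlapping. The counts and the median below are therefore a description. The median log2 fold change of the 12 was 1.89, against 0.03 over all genes tested. It was 1.75 with no filter, 1.37 without 12 h number 3, and between libraries of equal number 1.58, 1.47 and 2.71. The 16 markers summed to 84.9 to 338 TPM at 12 h and to 17.8 to 28.8 TPM at 0 h.

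In lung fibroblasts the same 16 markers summed to 14.1 to 22.4 TPM, and the median log2 fold change of the 12 genes was -0.13. Actc1 in lung was at 0.146 and 0.0394 TPM at 12 h and at 3.32 and 0.512 TPM at 0 h. The difference of the 12 h effect, ear minus lung, was 4.05 for Actc1 (SE 0.76) and 4.27 for Myl1 (SE 1.12). Myl1 in lung was at 0.311 and 0.0986 TPM at 12 h and at 0 and 3.42 TPM at 0 h. The difference of the 12 h effect was smaller where the lung fold change was positive, at 1.23 for Tnni2 (SE 0.73, lung 1.05) and 1.75 for Des (SE 0.77, lung 0.53). In lung Des was at 101 and 91.4 TPM at 12 h and at 107 and 40.4 TPM at 0 h, above its ear levels. Des belongs to the smooth muscle and pericyte list, not to the 16 markers. Of the 6 genes of that list tested in ear, 4 had a negative fold change (43.1% of all genes) and 2 a positive one. Their median was -0.15. In the limma interaction test 0 of 12550 genes passed (0%), and 327 had an unadjusted p under 0.05 (2.61%). The time effect on muscle genes is thus not shown to differ between the tissues.

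Promoters of 4 of these genes are printed because they hold motifs named for muscle regulators, the E-box bound by factors such as MyoD and myogenin and the CArG box bound by serum response factor. Each is the 250 bases before the start of the gene in RefSeq on GRCm38.p6, with E-box and CArG matches in capitals. In Myl1 and Actc1 the RefSeq start lies inside the span of the gene in GENCODE, the annotation used to sum TPM. The bases printed for these genes therefore fall within that span.
Myl1, chr1:66945057-66945306, minus strand: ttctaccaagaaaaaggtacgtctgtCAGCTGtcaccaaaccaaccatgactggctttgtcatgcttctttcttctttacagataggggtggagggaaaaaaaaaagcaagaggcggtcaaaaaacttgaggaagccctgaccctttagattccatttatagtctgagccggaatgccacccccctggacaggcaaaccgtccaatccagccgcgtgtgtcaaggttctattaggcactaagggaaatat
Acta1, chr8:123894776-123895025, minus strand: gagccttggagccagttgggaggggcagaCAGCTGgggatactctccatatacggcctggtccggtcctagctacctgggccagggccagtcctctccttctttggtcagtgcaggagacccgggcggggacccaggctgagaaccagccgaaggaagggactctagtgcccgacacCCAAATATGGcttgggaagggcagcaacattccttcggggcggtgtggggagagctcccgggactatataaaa
Actc1, chr2:114052876-114053125, minus strand: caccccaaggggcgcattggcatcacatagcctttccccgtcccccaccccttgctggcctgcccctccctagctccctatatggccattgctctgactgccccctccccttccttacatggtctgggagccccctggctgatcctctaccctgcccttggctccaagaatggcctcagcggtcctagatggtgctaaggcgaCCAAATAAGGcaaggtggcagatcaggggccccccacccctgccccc
Des, chr1:75360042-75360291, plus strand: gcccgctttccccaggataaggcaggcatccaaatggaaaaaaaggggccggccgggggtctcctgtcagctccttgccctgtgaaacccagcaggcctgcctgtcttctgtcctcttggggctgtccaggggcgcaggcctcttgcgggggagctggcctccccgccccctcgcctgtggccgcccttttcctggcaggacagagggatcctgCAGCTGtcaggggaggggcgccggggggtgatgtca

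The E-box searched was CAGCTG, on both strands, which read alike. Its first base lay 224 bases before the RefSeq start in Myl1, 221 in Acta1 and 36 in Des. The CArG box began 73 bases before the RefSeq start in Acta1 and 47 in Actc1. Of the 15 genes named as higher, 12 were matched to a promoter, and 6 of these (50%) held CAGCTG, against 12.77% of 27025 promoters of that length. The CArG box was in 2 of the 12 (16.7%), against 1.40% of all promoters. The wider E-box CANNTG, which contains CAGCTG, was in 9 of the 12 (75%), against 66.0%. Of the skeletal muscle markers tested, 9 were matched to a promoter. Of these, 3 held CAGCTG (33.3%), 2 the CArG box (22.2%) and 8 CANNTG (88.9%). The 15 genes were picked by their values in these libraries and all but Ret are muscle genes, so the shares describe those genes only. A match says only that the letters are there.

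The 6 genes named as lower at 12 h shared no list. Hopx, a homeodomain-only cofactor gene, was at 4.19, 3.72 and 6.20 TPM at 12 h and at 11.1, 7.43 and 14.0 TPM at 0 h, with a log2 fold change of -1.04 (SE 0.27). Gsta4, which encodes a glutathione transferase for lipid peroxidation products, was at 19.8, 66.1 and 53.8 TPM at 12 h and at 225, 84.5 and 97.2 TPM at 0 h (-1.54, SE 0.53). Klk10, a kallikrein-related protease gene, was at 1.38, 4.51 and 3.24 TPM at 12 h and at 14.0, 4.54 and 19.1 TPM at 0 h. The gap between the times in Klk10 was only that between 12 h number 2 and 0 h number 2. Avil, an actin-severing protein gene, and Penk, the enkephalin precursor, had log2 fold changes of -1.21 and -1.25, and Penk was at 94.9 TPM in 0 h number 1 alone. None of these passed the adjusted threshold with or without the block.

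In 3 genes with small unadjusted p a single short transcript held all or much of the difference. Zfp40, a zinc finger gene, had 1.05, 1.39 and 1.44 TPM at 12 h and 7.93, 3.68 and 5.88 TPM at 0 h. Its transcript of 635 bases was at 0.113, 0 and 0.0338 TPM at 12 h and at 6.67, 2.23 and 4.48 TPM at 0 h. The longest transcript of Zfp40 overlapped between the times, at 0.471 to 0.703 TPM at 12 h and 0.630 to 0.721 TPM at 0 h.

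Apc and Tspan4 were picked out after their values were seen. Apc, the scaffold of beta-catenin degradation, had a log2 fold change of -0.96 (SE 0.15), with 8.63, 8.41 and 10.9 TPM at 12 h and 19.1, 17.7 and 19.9 TPM at 0 h. An annotated nonsense-mediated decay transcript of 608 bases was at 1.20, 0 and 4.77 TPM at 12 h and at 9.62, 11.2 and 12.9 TPM at 0 h. The transcript of 12811 bases was at 6.44, 7.31 and 5.65 TPM at 12 h and at 8.20, 4.95 and 5.69 TPM at 0 h, and overlapped between the times. Tspan4, a tetraspanin gene, was at 576, 441 and 521 TPM at 12 h and at 259, 311 and 307 TPM at 0 h (0.80, SE 0.16). A transcript of 373 bases accounted for 196, 181 and 174 TPM of this at 12 h and for 0, 59.8 and 54.9 TPM at 0 h. The Tspan4 transcript of 1466 bases was at 189.9, 129.8 and 173 TPM at 12 h and at 129.3, 125.7 and 126 TPM at 0 h, without overlap, and that of 1281 bases was given the same values. How the authors' software divided reads between such short transcripts and the rest of the gene was not tested.

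**Figure D3:**
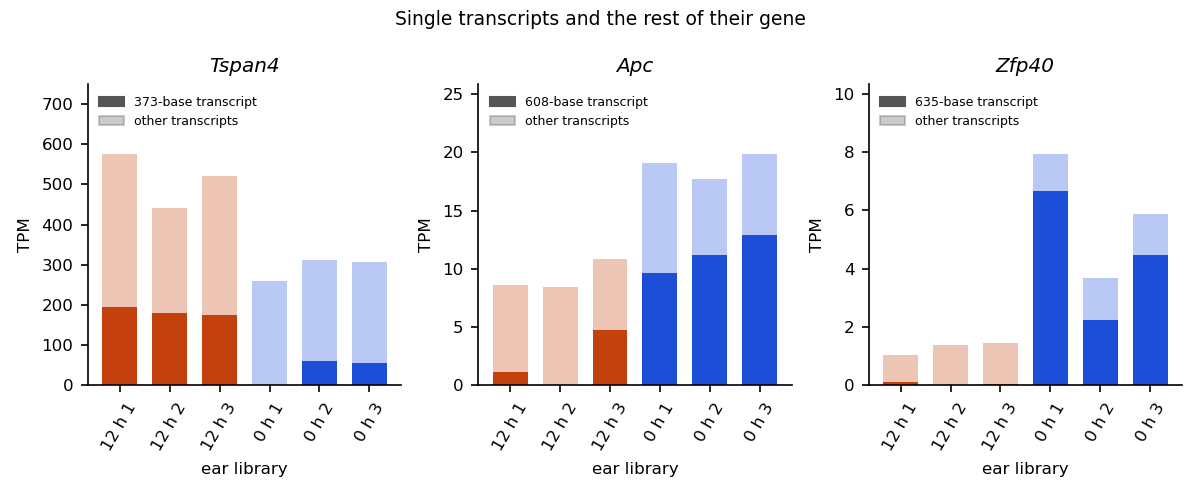
Bars give TPM per ear library for Tspan4, Apc and Zfp40, 12 h libraries at the left of each panel and 0 h libraries at the right, with 1 short transcript in solid colour and the other transcripts of the gene stacked above it in pale colour. The solid part is high at 12 h in Tspan4 and at 0 h in Apc and Zfp40, while the pale parts differ less.

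Ret, the receptor tyrosine kinase for GDNF-family ligands, was the gene outside muscle among the 15. It was at 32.8, 13.4 and 18.3 TPM at 12 h and at 6.71, 8.43 and 7.31 TPM at 0 h, with a log2 fold change of 1.32 (SE 0.31). The lung libraries were all under 1 TPM.

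Of the endothelial markers tested, 3 at low levels were higher in every 12 h library. Cdh5, the junction cadherin of endothelium, was at 10.1, 4.34 and 11.4 TPM at 12 h and at 2.51, 2.68 and 0.542 TPM at 0 h. Pecam1, an adhesion molecule of endothelium, was at 2.38, 1.46 and 2.61 TPM at 12 h and at 0.991, 0.354 and 1.02 TPM at 0 h. Emcn, a sialomucin of capillaries and veins, was at 4.05, 4.41 and 11.8 TPM at 12 h and at 1.75, 1.97 and 3.77 TPM at 0 h. In these 3 of the 5 endothelial markers tested every 12 h library lay above every 0 h library, as in 3.72% of all genes, and 7 of the 12 listed markers, Kdr, Tek and Vwf among them, were below the filter. The other markers tested overlapped between the times. The 12 listed markers summed to 59.3 to 99.3 TPM at 12 h and to 49.2 to 60.4 TPM at 0 h, also with overlap. Most of each sum lay outside Cdh5, Pecam1 and Emcn. The median log2 fold change of the 5 was 0.82, or 0.31 with no filter, and none passed.

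Mast cell protease genes were higher in 12 h numbers 1 and 3 and low in number 2. Cma1, which encodes chymase, was at 18.3, 0.640 and 6.58 TPM at 12 h and at 0.798, 0 and 0.823 TPM at 0 h. Mcpt4, a further mast cell chymase gene, was at 16.7, 0.502 and 3.999 TPM at 12 h and at 0.352, 0.0201 and 0.668 TPM at 0 h. The times overlapped in every mast cell marker tested, and 4 of the 5 passed the filter only through 12 h. Kit and Hdc, which mast cells also use, stayed under 1 TPM in all 6 libraries. The 8 listed markers summed to 1.77 to 57.4 TPM at 12 h and 0.108 to 3.65 TPM at 0 h.

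Markers of melanocytes and Schwann cells overlapped between the times and were spread between libraries of 1 time. Ngfr, the low-affinity neurotrophin receptor, was at 29.9, 20.1 and 7.55 TPM at 12 h and at 1.08, 23.5 and 2.72 TPM at 0 h. Sox10, the neural crest and glial regulator, was at 4.77, 3.92 and 0.920 TPM at 12 h and at 0.296, 3.58 and 0.541 TPM at 0 h. Both genes were high in 12 h numbers 1 and 2 and in 0 h number 2. Of the 7 markers tested, 5 had a positive fold change, as 56.9% of all genes did, and the median was 0.81. It was 1.70, 0.10 and 0.38 between libraries of equal number, 0.51 to 1.21 without 1 library, 0.03 with no filter and -0.18 with array weights.

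Adipocyte genes were set apart by 0 h number 1. Plin1, which coats lipid droplets, was at 6.39, 7.37 and 12.3 TPM at 12 h and at 220, 4.43 and 7.45 TPM at 0 h. The fatty acid carrier gene Fabp4 was at 148, 152 and 191 TPM at 12 h and at 2070, 65.9 and 107 TPM at 0 h. The median log2 fold change of the 10 adipocyte markers tested was -0.44, and 0.52 without 0 h number 1, so that the direction rests on that library. Cartilage genes were also highest there. Acan, the aggrecan gene, was at 0.223, 1.78 and 0.510 TPM at 12 h and at 11.5, 1.12 and 5.29 TPM at 0 h (-1.67, SE 0.64). Hapln1, which links aggrecan to hyaluronan, was at 3.999, 5.01 and 1.85 TPM at 12 h and at 13.7, 5.54 and 5.68 TPM at 0 h. Hapln1 did not overlap between the times, the only one of the 11 chondrocyte markers tested, where 1.39% of all genes lay wholly below.

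**Figure D4:**
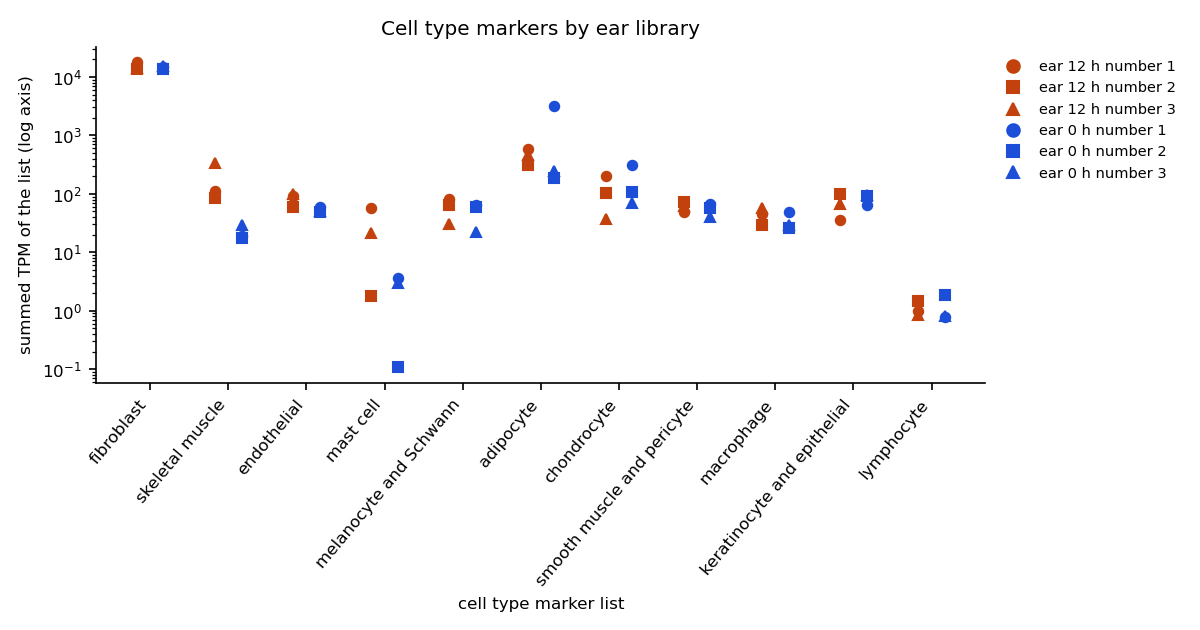
Summed TPM of each of the 11 cell type marker lists is drawn on a log axis for the 3 libraries at 12 h (left of each pair) and the 3 at 0 h (right). Skeletal muscle is separated between the times, at 84.9 to 338 TPM and 17.8 to 28.8 TPM, while the adipocyte sum stands out in 0 h number 1.

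Inflammatory genes were high in 12 h numbers 1 and 3. Saa3, an acute-phase protein gene, was at 5278, 188 and 2404 TPM at 12 h and at 1114, 123 and 176 TPM at 0 h. The cytokine gene Il6 was at 177, 21.7 and 54.9 TPM at 12 h and at 18.6, 25.0 and 16.8 TPM at 0 h. The neutrophil chemokine gene Cxcl5 was at 2876, 302 and 2167 TPM at 12 h and at 880, 309 and 430 TPM at 0 h. In each of them 12 h number 2 lay among or near the 0 h libraries. Of 23 cytokine and NF-kB genes tested, 21 had a positive fold change, as 56.9% of all genes did, and 0 passed (median 0.48). Tnfaip3, the feedback inhibitor of NF-kB, was at 4.18, 4.09 and 4.37 TPM at 12 h and at 2.84, 2.49 and 2.90 TPM at 0 h (0.48, SE 0.15). It was 1 of 2 members, with Il11, whose 12 h libraries all lay above the 0 h libraries, where 3.72% of all genes did so. All 9 complement genes tested had a positive fold change and overlapped between the times, with a median of 0.57. It was 0.37, 0.16 and 1.21 between libraries of equal number. Without 1 library it ranged from 0.09 (12 h number 1) to 1.17 (0 h number 1). The gene of the complement factor B, Cfb, was at 90.6, 17.9 and 47.8 TPM at 12 h and at 47.0, 14.7 and 16.4 TPM at 0 h.

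Immediate early genes, which respond to stimuli within minutes, were high in 12 h number 1. Junb was at 266, 80.6 and 97.0 TPM at 12 h and at 71.8, 72.7 and 110 TPM at 0 h. Ier3 was at 215, 70.8 and 91.8 TPM at 12 h and at 66.5, 57.6 and 86.1 TPM at 0 h. The median of the 18 genes tested was 0.32, and it was 1.55, 0.15 and -0.16 between libraries of equal number. Without 12 h number 1 it was -0.00. Fosl1 and Klf4 were the 2 members whose 12 h libraries all lay above (3.72% of all genes), with log2 fold changes of 0.27 and 0.30.

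Hypoxia-response genes lay higher in 12 h numbers 1 and 3. Adm, the adrenomedullin gene, was at 546, 173 and 313 TPM at 12 h and at 163, 196 and 154 TPM at 0 h. Vegfa, an angiogenic growth factor gene, was at 143, 67.2 and 94.2 TPM at 12 h and at 71.3, 70.6 and 41.3 TPM at 0 h. Of 20 such genes tested, 18 had a positive fold change, against 56.9% of all genes (median 0.43). In 1, the demethylase gene Kdm3a, every 12 h library lay above, a share close to the 3.72% of all genes. Slc16a3, which exports lactate, was at 130, 47.7 and 119 TPM at 12 h and at 62.6, 42.8 and 33.0 TPM at 0 h (1.01, SE 0.41). The median of the 18 glycolysis genes tested was 0.25, which rested on number 3, being -0.06, 0.04 and 0.77 between libraries of equal number and -0.01 without number 3 at both times. The median of the 4 metallothionein and zinc-response genes tested was 0.53, and 0.14 without number 3 at both times. Mt1 was at 3635, 787 and 4280 TPM at 12 h and at 2797, 747 and 865 TPM at 0 h, which is a low level in both number 2 libraries and a high one in 0 h number 1.

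Antioxidant genes under NRF2 had a median of -0.30 over the 19 tested, and of -0.07 without 0 h number 1. Nqo1, a quinone reductase gene, was at 37.8, 120 and 81.8 TPM at 12 h and at 280, 102 and 262 TPM at 0 h. Its log2 fold change was -1.43 (SE 0.52), and the times overlapped.

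Cell division genes were lowest in 12 h number 1. Mki67, the proliferation antigen gene, was at 3.13, 22.5 and 12.1 TPM at 12 h and at 16.4, 16.5 and 21.1 TPM at 0 h. Aurka, a mitotic kinase gene, was at 4.69, 37.6 and 23.9 TPM at 12 h and at 19.2, 36.7 and 43.7 TPM at 0 h. All 20 genes of G2 and mitosis had a negative fold change, as 43.1% of all genes did, each with overlap between the times, and their median of -0.67 was -1.56, 0.23 and -0.72 between libraries of equal number. Without 12 h number 1 that median was 0.00. The 20 S phase genes had a median of -0.41, or -0.01 without that library.

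Matrix glycoprotein and proteoglycan genes had a median of 0.25, with 15 of 22 positive, as 56.9% of all genes were. It was 0.30, 0.13 and 0.21 between libraries of equal number, and -0.09 to 0.42 without 1 library, being negative without 12 h number 1 (-0.08) or 0 h number 3 (-0.09). Dcn, the proteoglycan decorin, was at 3964, 407 and 1662 TPM at 12 h and at 1338, 298 and 559 TPM at 0 h. Thbs2, a matricellular gene, was at 82.9, 43.9 and 48.6 TPM at 12 h and at 38.7, 43.2 and 26.6 TPM at 0 h. Loxl2, a collagen cross-linking enzyme gene, was at 102, 52.0 and 52.7 TPM at 12 h and at 42.4, 44.9 and 24.1 TPM at 0 h. In Thbs2 and Loxl2 every 12 h library lay above every 0 h library, as in 3.72% of all genes. Their log2 fold changes were 0.65 (SE 0.29) and 0.85 (SE 0.34). Of the 22 genes of the list only 1 lay wholly above, near that share, so these genes are not both members of it. The 19 collagens tested had a median of -0.03.

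Among the other lists, the glucocorticoid targets had a median of 0.37 (10 of 12 positive; 0.10 without 12 h number 1), the senescence genes 0.20 and the interferon-stimulated genes 0.16. Fatty acid synthesis genes had a median of -0.15 with 11 of 12 negative, and 0.18 without 0 h number 1. Axin2, a Wnt feedback gene, lay above in all 12 h libraries (0.87, SE 0.31) within a Wnt and BMP list of median 0.09. It was the only 1 of the 19 genes tested in that list to do so, where 3.72% of all genes did. Hsph1, a heat-shock chaperone gene, was at 79.5, 65.4 and 61.2 TPM at 12 h and at 53.3, 42.7 and 39.4 TPM at 0 h (0.60, SE 0.17), within a heat shock list of median 0.02. Dlx1, a homeobox gene of head mesenchyme, was at 1.24, 2.56 and 2.12 TPM at 12 h and at 4.02, 4.57 and 3.14 TPM at 0 h (-0.74, SE 0.23). The clock genes, the unfolded protein response and the cholesterol synthesis genes had medians of 0.02, 0.02 and 0.03. All 38 ribosomal protein genes tested had a negative fold change (43.1% of all genes), between -0.24 and -0.03, with a median of -0.13 that was -0.14 with upper-quartile scaling and -0.10 with quantile normalization. The 22 nuclear genes of the respiratory chain were negative too, with a median of -0.11. Rps4x and Sdhb, 1 gene of each list, lay below in every 12 h library, near the 1.39% of all genes, and 0 genes of either list had an unadjusted p under 0.05.

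**Figure D5:**
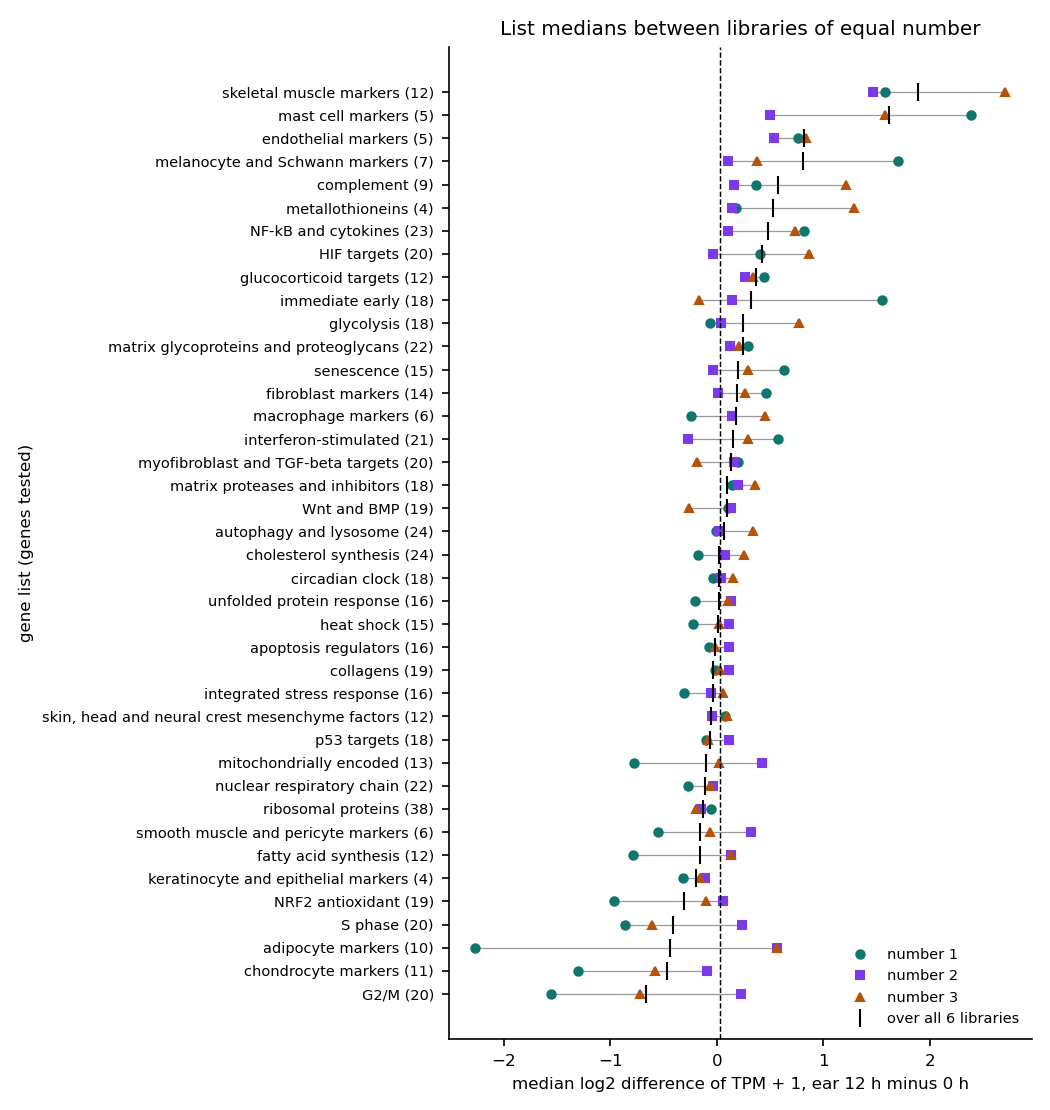
Median log2 differences of each gene list with at least 4 genes tested are drawn for libraries of equal number (circles, squares and triangles for 1, 2 and 3) and over all 6 libraries (black bar), with the number of genes tested in brackets and the dashed line at the median of all genes, 0.03. Skeletal muscle stands at the top with 1.58, 1.47 and 2.71, and most other lists far from the line are spread by number, such as G2/M at -1.56, 0.23 and -0.72.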

How the data were processed

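RNA from ear fibroblasts was measured in 3 libraries at 12 h and 3 at 0 h. Per the labels' protocols, RNA was taken with a Qiagen DNA and RNA kit and libraries followed standard Illumina protocols. The authors deposited TPM per transcript, made with kallisto 0.44.1 on GRCm38 per the submitters' processing notes; the transcript index, trimming and bias correction were not stated. Of 61440 transcripts, 60503 matched GENCODE vM21 by Ensembl ID and were summed over genes, and 937 were left out.

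Genes at or above 1 TPM in 2 or more ear libraries were tested as log2(TPM + 1) with limma 3.58.1 in R 4.3.3, using eBayes with trend, 4 residual and 3.00 prior degrees of freedom, two-sided tests and Benjamini-Hochberg adjustment at 0.05. The interaction with lung used all 10 libraries. The procedure was tested on simulated data in which each gene varied independently. These lack deviations shared across the genes of a library, so that test does not cover them. Libraries with equal replicate number deviated together from their group means (correlations of 0.462, 0.331 and 0.385, other pairs -0.500 to 0.271). The numbers were taken as paired in the block on that pattern alone. The labels give no shared origin, and the libraries of number 2 differ in Ddx3y, Eif2s3y and Kdm5d. The block left 2 residual degrees of freedom.

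Members and 42 gene lists were chosen with earlier results of these data known. The rule for named genes took up to 15 per direction by unadjusted p, with no overlap, a log2 fold change of 1 and 5 TPM; list members named beside it are among the 4 with the largest change in their list, or did not overlap and were picked after their values were seen. Of the list genes, 597 of 694 could be tested. Where 2 Ensembl genes carried a listed symbol, the more abundant was used. Promoters are from RefSeq. Alternatives tried were other pseudocounts, filters, scalings, weights, a fit without trend, all 10 libraries, the replicate block and leaving out libraries; leaving out a replicate number at both times was chosen after seeing the data. Xist was not analysed here.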

Additional observations from a re-analysis of the deposited data

Results flagged for a closer look

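In 76 of the 12550 genes tested (0.606%) the ear libraries at 12 h all lay above those at 0 h while the lung libraries at 12 h all lay below those at 0 h. These 76 lie within the 467 genes that were wholly above in ear. Among the 83 genes named for their fold change, 7 showed the pattern. Many of the 83 were picked because their ear libraries did not overlap, which is part of the pattern. The count of 7 is therefore not comparable with the share over all genes. The difference of the 12 h effect, ear minus lung, was 4.05 for Actc1, 3.08 for Tnnc2, 4.08 for Tnni1, 2.56 for Myl4, 1.95 for Myog and 1.73 for Ckm, all muscle genes, and 1.37 for Tspan4. The limma interaction test gave an adjusted p of 0.9999 for each, so none is shown to differ between the tissues. Only 2 lung libraries stand at each time. Myog, Ckm and Tnnc2 were under 1 TPM in all 4 lung libraries, where the lung difference is one between values close to 0.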

How the results depend on the processing

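With limma, 0 genes passed in every alternative but the replicate block, under which 1 gene passed (Myl1, 3.46, adjusted p = 0.0463). For the tissue difference 0 genes passed with a pseudocount of 0.1 and with the block. Genes with an unadjusted p under 0.05 numbered 256, against 1182 with array weights, 640 with the block, 541 with no filter, 166 with a filter of 5 TPM and 179 to 674 without 1 library. Leaving out 1 library at a time left Myl1 between 2.80 and 3.95. Fold changes turned round in few genes, and the cause was not tested. With array weights these were Ngfr (-0.19), Sox10 (-0.33), Plin1 (0.59) and Fabp4 (0.94). Without number 1 at both times they were Plin1 (0.64), Fabp4 (1.01) and Junb (-0.0175). Without 1 library, Plin1 ranged from -2.20 to 0.47 and Fabp4 from -1.53 to 0.94. Of 1560 values for 83 named genes, 1550 kept their direction and side of the threshold. Of 779 list medians, 60 moved by more than the SD of the list's 3 medians between libraries of equal number. That SD is wide for lists spread by number. The adipocyte median counts as unmoved though it went from -0.44 to 0.52 without 0 h number 1. No median of the skeletal muscle markers turned negative, the lowest being 0.94 with a pseudocount of 5. The block, the fit without trend and the fit of all 10 libraries cannot change a fold change, so directions and medians were fixed there in advance. Unknown depth and 3 libraries per time limit precision.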
